A study of Mus musculus with 8 samples.

Results

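The carnitine shuttle is described here by 8 genes: the carnitine palmitoyltransferases Cpt1a, Cpt1b, Cpt1c and Cpt2, the carriers Slc25a20 and Slc22a5, and the carnitine acyltransferases Crat and Crot. They were chosen by name, as the rows whose Ensembl identifier has these mouse symbols, and all 8 were found among 41033 gene rows and had enough reads to be among the 16705 genes tested. The tables come from sequencing of rRNA-depleted total RNA of brown adipose tissue from 8 C57BL/6J mice, each giving 1 library. The WT group was 4 mice with floxed Nampt alleles and no other change named (WT1 to WT4). The ANKO group was 4 mice in which floxed Nampt was combined with a Cre recombinase under the adiponectin promoter (ANKO1 to ANKO4). All 8 mice were kept at room temperature on regular chow, and neither age nor sex is given in the labels. The question put to the tissue is how its transcripts differ once adipocytes lose NAMPT, which turns nicotinamide into nicotinamide mononucleotide for NAD+ salvage. The adiponectin promoter is active in adipocytes, so the deletion is directed at these cells, while RNA of the whole tissue was sequenced.

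Long-chain fatty acids enter mitochondria as carnitine esters. CPT1 on the outer mitochondrial membrane makes the acylcarnitine and is inhibited by malonyl-CoA, SLC25A20 exchanges acylcarnitine for free carnitine across the inner membrane, and CPT2 on its matrix side restores the acyl-CoA for beta-oxidation. CPT1A is the isoform of liver and most tissues, CPT1B is the isoform of muscle and brown fat, and CPT1C is found mainly in neurons. SLC22A5 brings carnitine into the cell, CRAT moves acetyl and other short chains between CoA and carnitine, and CROT does so for the medium chains that leave peroxisomes. Brown fat burns fatty acids for heat and depends on this route.

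Of the 8 shuttle genes 2 rose in ANKO, Cpt1a and Cpt1c, and 5 fell, Cpt1b, Cpt2, Slc25a20, Slc22a5 and Crat (edgeR quasi-likelihood test, Benjamini-Hochberg adjusted p under 0.05 over all genes tested). Crot did not pass the test. The 7 calls among 8 genes stand beside a background in which 58.2% of all genes tested were called, 30.6% higher and 27.6% lower in ANKO. The 4 WT and 4 ANKO libraries did not overlap for 7 of the 8 genes, beside 55.0% of all genes. All ANKO libraries lay below all WT libraries for 5 of the 8 (26.4% of all genes) and above them for 2 (28.7%), so a call or a clear separation is common in this comparison. The median log2 fold change of the 8 genes was -1.31, beside -0.01 over all genes tested. Among the 1902 genes with a WT mean of 100 to 1000 CPM, 1174 were lower, 122 were higher and the median was -0.45. Among the 6915 genes at 10 to 100 CPM, 2636 were lower, 1364 were higher and the median was -0.17. Cpt2, Slc25a20 and Slc22a5 lay in the first band and Cpt1a, Cpt1b and Crot in the second. Crat lay above both bands and Cpt1c below both. In such whole-tissue libraries fewer cells of a type and less RNA per cell cannot be told apart.

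With the mean log2 level of 17 skeletal muscle markers as a covariate in the same test, 4 of the 8 genes were called: Cpt1a higher and Cpt1b, Slc22a5 and Crot lower. This covariate ran closely with genotype (Pearson r = 0.857), so that fit can hardly tell muscle level and genotype apart. A call lost with it, here and below, is given with that limit. Without any scaling beyond library totals, 5897 genes were called higher and 2940 lower in place of 5111 and 4615. That setting moved the median of all genes by 0.18 on the log2 scale, and the 8 shuttle genes kept their directions and their calls.

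**Figure D1:**
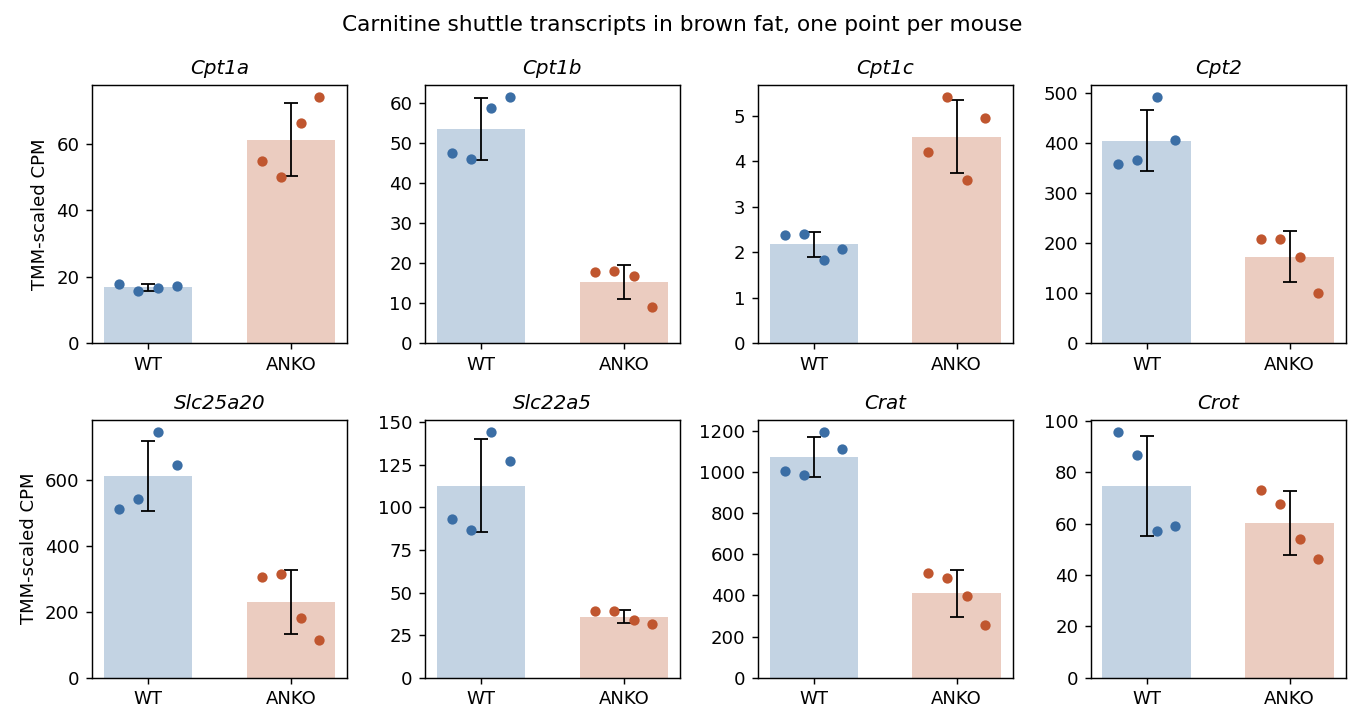
Level of each of the 8 carnitine shuttle genes in TMM-scaled CPM (y axis, linear, from 0) in WT and ANKO brown fat (x axis). Each point is 1 mouse and each bar is the mean of 4 mice ± SD. Cpt1a and Cpt1c lie higher in all 4 ANKO mice, Crot overlaps between groups, and the other 5 genes lie lower in all 4 ANKO mice.

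The stretches before the annotated starts of 4 shuttle genes are printed to set the gene that rose most beside 3 that fell. Bases are those of the RefSeq promoter table (GRCm38.p6), which had an entry for 6 of the 8 genes and none for Cpt1b and Crat. Each runs 5′ to 3′ on the strand of the gene and stops before any annotated exon of it. Capitals mark the GC box (GGGCGG on either strand, read as CCGCCC on the other) and the core motif of nuclear receptors (AGGTCA, or TGACCT). The Cpt1a stretch is chr19:3323051-3323284 on the plus strand, that of Slc25a20 is chr9:108661886-108662087 on the plus strand, that of Cpt2 is chr4:107923611-107923839 on the minus strand, and that of Slc22a5 is chr11:53891704-53891953 on the minus strand.
Cpt1a: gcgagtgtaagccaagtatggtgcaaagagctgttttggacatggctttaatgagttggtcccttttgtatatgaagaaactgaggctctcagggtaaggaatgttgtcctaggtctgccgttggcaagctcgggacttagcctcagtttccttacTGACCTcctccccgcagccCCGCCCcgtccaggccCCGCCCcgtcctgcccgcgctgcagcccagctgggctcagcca
Slc25a20: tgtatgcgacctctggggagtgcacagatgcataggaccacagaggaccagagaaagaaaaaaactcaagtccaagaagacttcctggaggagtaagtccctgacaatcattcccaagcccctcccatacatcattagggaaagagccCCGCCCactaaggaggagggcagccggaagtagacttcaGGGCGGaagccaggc
Cpt2: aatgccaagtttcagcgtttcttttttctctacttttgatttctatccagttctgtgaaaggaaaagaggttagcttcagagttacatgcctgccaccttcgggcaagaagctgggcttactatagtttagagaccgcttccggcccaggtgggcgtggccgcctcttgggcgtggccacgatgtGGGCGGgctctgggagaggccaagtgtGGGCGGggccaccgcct
Slc22a5: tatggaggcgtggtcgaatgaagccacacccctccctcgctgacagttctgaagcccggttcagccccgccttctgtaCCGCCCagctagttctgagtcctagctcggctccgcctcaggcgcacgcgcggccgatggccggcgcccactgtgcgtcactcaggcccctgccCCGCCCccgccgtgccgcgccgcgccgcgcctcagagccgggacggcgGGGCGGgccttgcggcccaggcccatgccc
In the full windows of 300 bases, 250 before and 50 after the start, GC boxes numbered 3 in Cpt1a, 3 in Slc25a20, 3 in Cpt2 and 5 in Slc22a5. Crot held 2 and Cpt1c held 1. At least 1 GC box was present in 35.6% of all 32817 promoters of this length. AGGTCA occurred in Cpt1a and in Cpt1c, 1 time each, and in 16.3% of all promoters. These are also the genes that rose, which describes 2 windows and no more. CCAAT, on either strand, occurred in Cpt1a, Cpt1c and Crot and in 37.4% of all promoters. Neither CACGTG (7.15% of promoters) nor the direct repeat AGGTCANAGGTCA, the arrangement that PPAR and RXR pairs are known to bind (0.0396%), was found in any of the 6 windows. GC content was 47.3% in Cpt1c and between 57.3% and 72.7% in the other 5, beside a median of 52.7% over all promoters.

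Cpt1a (ENSMUSG00000024900, GRCm38 chr19:3323301-3385732, plus strand) makes acylcarnitine on the outer membrane and was the member with the largest rise. CPM here stands for counts scaled to library size by TMM. Its level was 17.9, 15.6, 16.5 and 17.3 CPM in WT1 to WT4. In ANKO1 to ANKO4 it was 54.9, 50.02, 66.4 and 74.2 CPM. The 4 WT libraries lay close together, the 4 ANKO libraries were all far above them, and ANKO4 was the highest. The means were 16.8 ± 1.003 and 61.4 ± 10.9 CPM (SD, n = 4 each), a 3.64-fold rise with a log2 fold change of 1.87 ± 0.13 (SE) and an edgeR adjusted p of 2.00e-06. With each library left out in turn the log2 fold change ran from 1.76 to 1.94, and with the muscle marker covariate it was 1.91.

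Cpt1b (ENSMUSG00000078937, chr15:89416405-89425863, minus strand), the isoform known for muscle and brown fat, moved the other way. WT1 to WT4 had 47.6, 46.1, 58.6 and 61.4 CPM. ANKO1 to ANKO4 had 17.6, 17.9, 16.6 and 9.03 CPM. ANKO1 to ANKO3 were alike, ANKO4 was lower still, and no ANKO library reached a WT library. The mean went from 53.4 ± 7.74 to 15.3 ± 4.21 CPM, 3.45-fold lower, with a log2 fold change of -1.79 ± 0.20 and an edgeR adjusted p of 3.78e-05. Without ANKO4 the log2 fold change was -1.62. The counts of this row may come from a small part of the gene, as described below. Skeletal muscle also uses Cpt1b, and markers of its fibres were higher in every ANKO library (their values are given with the other marker lists). With the muscle covariate, which ran closely with genotype, the log2 fold change of Cpt1b was -1.34. Beyond that fit the part of muscle in the Cpt1b level was not tested.

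Cpt1c (ENSMUSG00000007783, chr7:44959373-44974851, minus strand), the neuronal isoform, was the least abundant of the 8. WT1 to WT4 had 2.38, 2.41, 1.83 and 2.07 CPM. ANKO1 to ANKO4 had 4.21, 5.42, 3.59 and 4.95 CPM, all above all WT libraries. Its 2.08-fold rise (log2 fold change 1.06 ± 0.19) had an edgeR adjusted p of 0.000973. With the muscle covariate the log2 fold change was 0.77 with an adjusted p of 0.160, so the call was lost. The neuron markers Tubb3, Snap25, Syt1, Rbfox3 and Elavl4 summed to 0.233 to 0.743 CPM in WT and 0.230 to 1.17 CPM in ANKO, and none of the 5 had enough reads to be tested.

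The deposited Cpt1b value rests on a small piece of the gene. The row for the neighbouring choline kinase gene Chkb (ENSMUSG00000022617, chr15:89416405-89429908, minus strand) reaches over all of Cpt1b and carries exons of read-through transcripts. As a result 2744 of the 3372 exon bases of Cpt1b, or 81.4%, are also exon bases of the Chkb row. How reads in shared bases were treated was checked on the tables themselves. All 414 genes whose every exon base is shared with a gene on the same strand had 0 counts in all 8 libraries. So did all 218 genes whose every exon base is shared only with genes on the opposite strand, while 33.9% of the 32317 genes with no shared base had 0 counts. If the same treatment held for Cpt1b, its counts came from reads in the other 628 bases.

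Those 628 bases do not represent the gene evenly. In Cpt1b-201, the longest of the 4 annotated transcripts, 151 of 2895 bases are unshared. The other 477 unshared bases lie outside Cpt1b-201, in the transcripts Cpt1b-202 and Cpt1b-203. The largest unshared block, 448 bases at chr15:89425348-89425795, belongs to Cpt1b-203, a protein-coding model, and is not part of Cpt1b-201. A level per kb of the full deposited length would then understate Cpt1b, whereas the fold change between groups compares the same bases in every library. The unshared blocks of Cpt1b-201 hold 66 and 85 bases, and how far the fold change holds for that transcript was not tested. Chkb itself, which would hold none of the shared reads either, went from 129 ± 12.1 CPM in WT to 58.6 ± 7.38 CPM in ANKO (log2 fold change -1.14, edgeR adjusted p = 2.07e-05). Among the other members, Crat shares 59 exon bases with Dolpp1 and 411 with the antisense gene Gm16323, Crot shares 39 with Gm27941, and the remaining 5 genes share none.

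**Figure D2:**
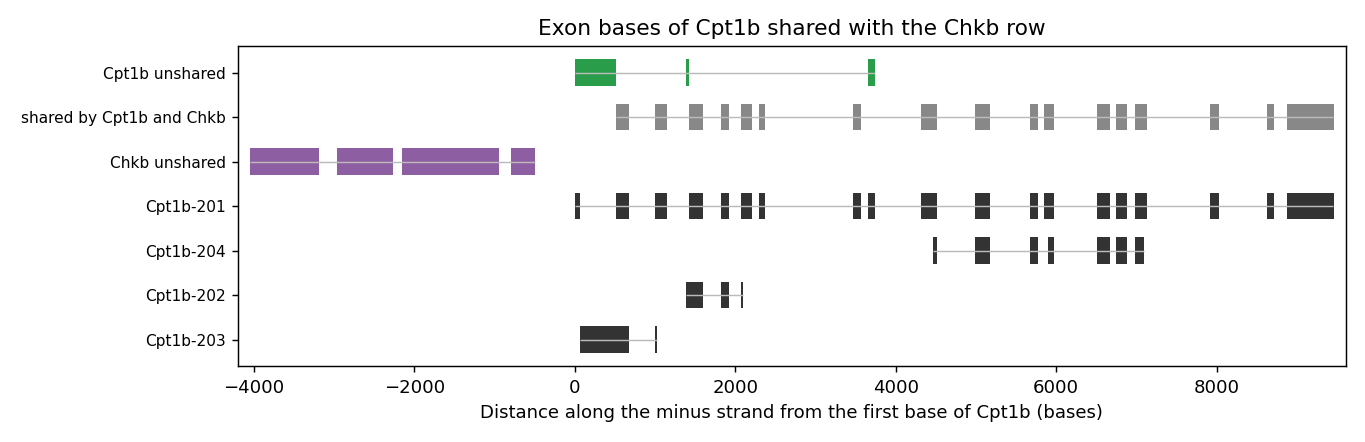
Exon blocks along the minus strand (x axis, bases from the first base of Cpt1b), drawn to scale in rows: those of Cpt1b alone (green), those in both the Cpt1b and the Chkb row (grey), those of Chkb alone (purple) and the 4 annotated Cpt1b transcripts (black). Of the 628 green bases most lie near the start of the gene, and 448 of them belong to Cpt1b-203.

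The balance of both isoforms was taken within each library as the Cpt1a level over the Cpt1b level, each per kb of deposited gene length, so that library scaling plays no part. The ratio was 0.295, 0.265, 0.220 and 0.221 in WT1 to WT4. In ANKO1 to ANKO4 it was 2.44, 2.19, 3.12 and 6.39. Cpt1a was thus the lower isoform in every WT library and the higher one in every ANKO library on this basis, and ANKO4 had by far the highest ratio. The geometric means were 0.249 and 3.21, a difference of 3.69 on the log2 scale or 12.9-fold (exact two-sided permutation test, p = 0.0286, the smallest that 4 against 4 allows; adjusted over 4 within-library measures, p = 0.0381).

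Which isoform was the higher one in ANKO depended on the length used. Per kb of unshared exon bases, a basis chosen after the shared exons had been seen, the ratio was 0.0549, 0.0494, 0.0411 and 0.0412 in WT1 to WT4. It was 0.455, 0.408, 0.581 and 1.19 in ANKO1 to ANKO4, so Cpt1a passed Cpt1b in ANKO4 alone. The difference of 3.69 between groups was the same on both bases, since a fixed length cancels in it. The deposited length includes 2744 bases shared with Chkb, and genes made only of shared bases had 0 counts. If Cpt1b was counted in the same way, the deposited length is too long for it. The unshared length is not known to be exact either, because the share of reads from each Cpt1b transcript was not measured. The direction and size of the shift were measured for the counted bases of each gene, and the crossing point was not. If Cpt1b was counted on its 628 unshared bases, 477 of them lie outside Cpt1b-201. A difference between groups in the share of each Cpt1b transcript would then be part of the 3.69, and it was not tested.

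**Figure D3:**
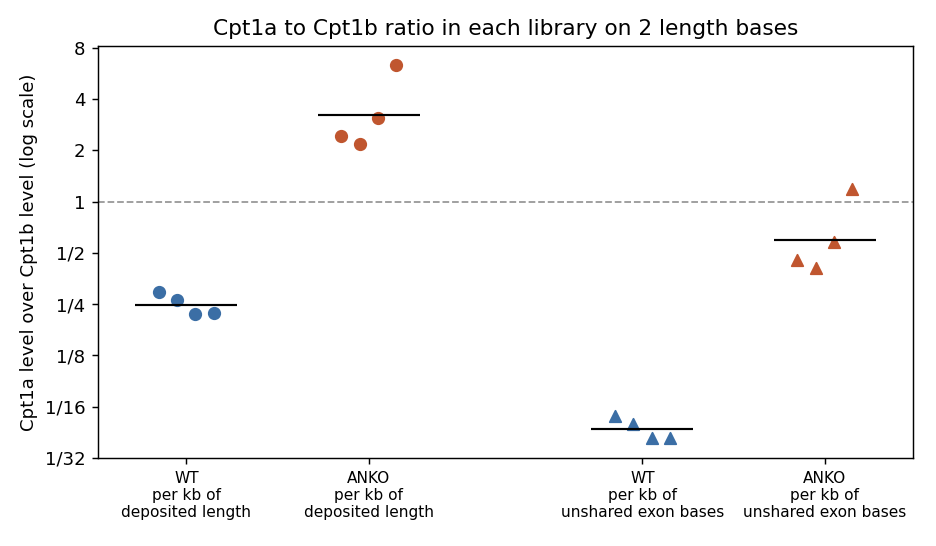
Ratio of the Cpt1a to the Cpt1b level in each library (y axis, log scale), for WT and ANKO on the deposited gene lengths and on the unshared exon bases (x axis). Each point is 1 mouse, horizontal bars are geometric means and the dashed line marks equal levels. The WT points lie between 0.0411 and 0.295 and the ANKO points between 0.408 and 6.39, and the line is crossed by all ANKO points on the first basis and by 1 on the other.

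The sum of Cpt1a and Cpt1b was sensitive to the same choice. Per kb of deposited length the sum was 18.3, 17.3, 21.2 and 22.3 CPM per kb in WT1 to WT4 and 18.0, 17.0, 20.4 and 20.0 in ANKO1 to ANKO4. The groups overlapped, with a difference of -0.07 on the log2 scale (exact permutation p = 0.543, adjusted p = 0.543). Per kb of unshared bases the sum was 77.0 to 102 CPM per kb in WT and 31.8 to 42.03 in ANKO, a difference of -1.20 (exact permutation p = 0.0286). Whether total CPT1 transcript fell can therefore not be read from these counts without the length that applies to Cpt1b.

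Slc25a20 (ENSMUSG00000032602, chr9:108662098-108684641, plus strand) encodes the inner membrane carrier. WT1 to WT4 had 513, 542, 746 and 646 CPM. ANKO1 to ANKO4 had 304, 315, 183 and 114 CPM. All ANKO libraries were below all WT libraries, with ANKO3 and ANKO4 well below ANKO1 and ANKO2. It was 2.67-fold lower (log2 fold change -1.42 ± 0.30, edgeR adjusted p = 0.00249), and the call was lost with the muscle covariate (log2 fold change -0.96, adjusted p = 0.235).

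Cpt2 (ENSMUSG00000028607, chr4:107903981-107923610, minus strand), which hands the acyl group back to CoA in the matrix, had 357, 365, 491 and 405 CPM in WT1 to WT4. In ANKO1 to ANKO4 it had 209, 208, 171 and 100.1 CPM. The order of the ANKO libraries was nearly that of the carrier, with ANKO4 lowest, and the groups did not overlap. It was 2.35-fold lower (log2 fold change -1.23 ± 0.22, edgeR adjusted p = 0.000929; with the muscle covariate -0.90, adjusted p = 0.138).

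The summed CPT1 level over the Cpt2 level, the outer against the inner membrane enzyme, rose from 0.103 to 0.131 in WT to 0.195 to 0.476 in ANKO per kb of deposited length. The difference was 1.21 on the log2 scale (exact permutation p = 0.0286, adjusted p = 0.0381). Per kb of unshared bases it was 0.08 (exact permutation p = 0.743), with 0.473 to 0.601 in WT and 0.461 to 0.758 in ANKO. A shift between both membrane steps was therefore measured on one length basis and not on the other. The basis that showed it counts the shared bases of Cpt1b in its length.

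Slc22a5 (ENSMUSG00000018900, chr11:53864542-53891660, minus strand), the plasma membrane carnitine transporter, had 93.1, 86.8, 144 and 127 CPM in WT1 to WT4. ANKO1 to ANKO4 had 39.2, 39.1, 33.8 and 31.6 CPM. The ANKO libraries were close to each other, the WT libraries split into a lower and a higher pair, and the groups were far apart. It was 3.14-fold lower (log2 fold change -1.65 ± 0.17, edgeR adjusted p = 2.44e-05). With the muscle covariate the log2 fold change was -0.95 (adjusted p = 0.00761), so the call was kept at a smaller size.

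Crat (ENSMUSG00000026853, chr2:30400471-30415813, minus strand), which buffers acetyl-CoA by moving acetyl groups to carnitine, had the highest CPM of the 8 genes. WT1 to WT4 had 1004, 983, 1194 and 1109 CPM. ANKO1 to ANKO4 had 507, 484, 395 and 256 CPM. Every ANKO library was well below every WT library and ANKO4 was again the lowest. It was 2.61-fold lower (log2 fold change -1.39 ± 0.21, edgeR adjusted p = 0.000306; with the muscle covariate -1.13, adjusted p = 0.0604).

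Crot (ENSMUSG00000003623, chr5:8966033-8997324, minus strand), the peroxisomal enzyme, had 95.8, 86.8, 57.1 and 59.0 CPM in WT1 to WT4. ANKO1 to ANKO4 had 73.0, 67.9, 54.0 and 46.2 CPM. The groups overlapped: ANKO1 and ANKO2 lay between WT4 and WT2, and only ANKO3 and ANKO4 lay below all WT libraries. The log2 fold change was -0.30 ± 0.20 (edgeR adjusted p = 0.218). It was called lower without WT3 and WT4 (-0.61, adjusted p = 0.0190) and with the muscle covariate (-0.94, adjusted p = 0.0445), and WT3 and WT4 are the WT libraries with the lowest Crot.

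The Crot level over the Crat level, per kb of deposited length, was 0.0943, 0.0873, 0.0472 and 0.0526 in WT1 to WT4. It was 0.142, 0.139, 0.135 and 0.178 in ANKO1 to ANKO4. The ratio was higher in ANKO with no overlap of the groups, although Crot itself did not pass its test. The difference was 1.14 on the log2 scale, 2.20-fold (exact permutation p = 0.0286, adjusted p = 0.0381), and WT1 and WT2 lay nearer to ANKO than WT3 and WT4 did.

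Levels of different genes can be set in order only per length. In WT the mean level per kb of deposited length was highest for Slc25a20 (343 CPM per kb), then Crat (199), Cpt2 (169), Slc22a5 (36.8), Cpt1b (15.8), Crot (13.7), Cpt1a (3.91) and Cpt1c (0.778). Neighbours in that order had separate ranges over the 4 WT libraries, except Crat with Cpt2 and Cpt1b with Crot. Within libraries, Crat was above Cpt2 in all 4 and Cpt1b above Crot in 2. In ANKO the order was Slc25a20 (128), Crat (76.2), Cpt2 (72.0), Cpt1a (14.3), Slc22a5 (11.7), Crot (11.05), Cpt1b (4.54) and Cpt1c (1.63). The ranges of Slc25a20, Crat and Cpt2 overlapped from neighbour to neighbour, as did those of Cpt1a, Slc22a5 and Crot. Within libraries, Slc25a20 was above Crat and Crat above Cpt2 in all 4 ANKO libraries. Cpt1a was above Slc22a5 in 3 of the 4, and Slc22a5 above Crot in 3. The inner membrane carrier and Cpt2 stood above each CPT1 gene in both groups, by an amount that depends on the length used for Cpt1b. Per kb of unshared bases Cpt1b stood at 85.1 CPM per kb in WT and 24.4 in ANKO, rank 4 in both and below Cpt2 (149 to 205 CPM per kb in WT and 41.9 to 87.3 in ANKO), and its ANKO range overlapped that of Cpt1a.

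The WT libraries were not alike for most of the shuttle. For 7 of the 8 genes the pair WT1 and WT2 had a range apart from the pair WT3 and WT4, and Cpt1a was the exception. How often these pairs lie apart over all genes tested was not counted, so the split cannot be called particular to the shuttle. Cpt1b, Cpt2, Slc25a20, Slc22a5 and Crat were lower in WT1 and WT2, and Crot and Cpt1c were higher there. The summed muscle marker level was 1143, 3148, 173 and 76.3 CPM in WT1 to WT4, and Ucp1, the uncoupling protein of brown fat, was 3369, 4170, 8829 and 7430 CPM. Without WT3 and WT4 the log2 fold changes of the 7 called genes ran from -1.60 for Cpt1b to 1.86 for Cpt1a, and all 7 were still called. In ANKO the muscle sum was 11719 to 16722 CPM, and ANKO4, the library with the fewest reads (5738067), had the lowest Ucp1 (317 CPM) and the lowest level of 6 of the 8 shuttle genes. The part of these differences in the shuttle results was not tested beyond the settings given here.

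The falling members were correlated within groups. After the mean of each group was taken off, Cpt1b correlated over the 8 libraries with Cpt2 (Pearson r = 0.948), Crat (0.947), Slc25a20 (0.892) and Slc22a5 (0.651), with Crot hardly (0.175) and with Cpt1a inversely (-0.669). Cpt1a ran inversely to Slc25a20 (-0.881), Crat (-0.816), Cpt2 (-0.795) and, less closely, Crot (-0.541) and Slc22a5 (-0.327). Among 9137 protein-coding genes at a mean level of 10 CPM or more, those most like Cpt1a were Prkcd (r = 0.979), Myo9b (0.973) and Cemip2 (0.967). Those most like Cpt1b were Tmem259 (0.992), Exoc7 (0.990) and Rbfa (0.989). These values are descriptions over 8 libraries that differ in depth and in marker levels of other cell types, which all genes of a library share, and ANKO4 stands apart in many of them. Cpt1c was below the level required for this comparison.

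Genes that make or carry carnitine moved in both directions. Of 9 such genes 8 had a row, 5 were tested, 3 rose and 1 fell, with a median log2 fold change of 0.71. For this and the lists that follow, the share over all genes tested was 30.6% higher and 27.6% lower. Aldh9a1, which oxidises the aldehyde intermediate of carnitine synthesis, fell from 99.3 to 114 CPM in WT to 39.5 to 53.8 CPM in ANKO (log2 fold change -1.14, edgeR adjusted p = 1.71e-05). The transporters that rose were low: Slc22a4 had 5.40 to 7.43 CPM in WT and 10.4 to 15.5 in ANKO (1.06, adjusted p = 0.000508; with the muscle covariate 1.01, adjusted p = 0.0634). Slc22a21, a carnitine transporter closely related to Slc22a5, had 1.78 to 2.87 CPM in WT and 3.06 to 3.86 in ANKO (0.71, adjusted p = 0.0130), and it lost its call without WT3 and WT4 (0.51, adjusted p = 0.106) and with the muscle covariate (0.37, adjusted p = 0.538). Slc16a9, a carnitine efflux carrier, had 1.40 to 2.14 CPM in WT and 3.64 to 4.55 in ANKO (1.23, adjusted p = 0.000445). How reads that map to related copies were counted is not given in the sources used here, so the Slc22a21 value is uncertain.

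Slc25a29, a mitochondrial carrier of basic amino acids first described as carnitine carrier-like, overlapped between groups (log2 fold change -0.04, adjusted p = 0.881), and its sign depended on the scaling. Bbox1, which makes carnitine in the last step of its synthesis, had 12 counts summed over WT and 16 over ANKO. Slc6a14 had 1 and 3 summed counts and Slc22a16 had 0 in both groups, where 3 counts correspond to 0.0604 to 0.523 CPM per library. These 3 genes were at or near the limit of detection at this depth. Tmlhe was not analysed here.

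The enzymes that use what the shuttle delivers all fell. Of 17 genes of mitochondrial beta-oxidation 17 were lower and 0 higher, with log2 fold changes from -1.99 to -0.58 and a median of -1.54. Over all genes tested 27.6% were called lower, as were 1174 of the 1902 genes with a WT mean of 100 to 1000 CPM. Etfa, an electron transfer flavoprotein subunit, had 625 to 690 CPM in WT and 114 to 195 in ANKO (-1.99, adjusted p = 7.42e-06). Eci1, an enoyl-CoA isomerase for unsaturated chains, had 611 to 724 and 103 to 217 CPM (-1.93, adjusted p = 4.53e-05). Echs1, the short-chain enoyl-CoA hydratase, had 906 to 1028 and 169 to 344 CPM (-1.80, adjusted p = 5.16e-05). Eci2, another enoyl-CoA isomerase, had a log2 fold change of -1.25 (adjusted p = 2.51e-05). The falls of Cpt1b, Cpt2, Slc25a20, Slc22a5 and Crat were thus within the range of this list, and Cpt1a, Cpt1c and Crot lay outside it.

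Genes upstream of the shuttle were mixed. Of 11 acyl-CoA synthetases, fatty acid transport proteins and the acyl-CoA binding protein Dbi, 2 rose, 3 fell and 6 did not pass (median -0.21). The share over all genes tested was 30.6% higher and 27.6% lower. Acsl1, which activates long-chain fatty acids in adipocytes, had 3688 to 6281 CPM in WT and 1194 to 1745 in ANKO (-1.70, adjusted p = 0.000145), and its call was lost with the muscle covariate (-0.97, adjusted p = 0.0893). Slc27a2, which activates very long chains, had 259 to 475 and 19.8 to 36.3 CPM (-3.70, adjusted p = 3.04e-06). Slc27a6 and Acsl6 rose from low levels, Slc27a6 from 0.153 to 0.297 CPM to 0.689 to 1.04 CPM (log2 fold change 2.004, adjusted p = 0.000575). Summed over WT they had 26 and 24 counts, and Acsl6 had 1 count in WT3 and 2 in WT4, so its fold is uncertain. Acsl6 went from 0.0305 to 0.583 CPM to 1.60 to 2.46 CPM (3.33, adjusted p = 0.00125), a log2 fold change that was 4.37 without WT2 and 2.24 without WT3 and WT4. Both genes lost their call with the muscle covariate (1.22, adjusted p = 0.211 for Slc27a6 and 0.22, adjusted p = 0.906 for Acsl6).

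Of 15 genes that set malonyl-CoA, the CPT1 inhibitor, or belong to AMPK and its kinases, 5 rose, 7 fell and 3 did not pass (median 0.19). Among all genes tested 30.6% were called higher and 27.6% lower, so calls in both directions are common. AMPK phosphorylates and inhibits acetyl-CoA carboxylase, and its subunit genes moved in different directions. Prkag2, a regulatory gamma subunit, had 175 to 220 CPM in WT and 44.0 to 52.8 in ANKO (-1.96, adjusted p = 6.70e-07). Prkab2, a beta subunit common in muscle, had 11.6 to 21.02 and 42.7 to 55.5 CPM (1.57, adjusted p = 4.98e-05). Of the catalytic subunits Prkaa2 rose (0.90, adjusted p = 0.000275) and Prkaa1 fell (-0.59, adjusted p = 0.000401), and neither was called with the muscle covariate (adjusted p = 0.144 and 0.140).

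The enzymes that make and remove malonyl-CoA were named after their values had been seen. Mlycd, the decarboxylase that removes it, fell from 137 to 215 CPM in WT to 55.7 to 89.4 CPM in ANKO (-1.13, edgeR adjusted p = 0.000438). Acacb, the carboxylase at the mitochondrial surface, fell from 1760 to 2192 CPM to 618 to 1583 CPM (-0.75, adjusted p = 0.0319), and without WT1, WT2 or ANKO3 its adjusted p was 0.0560, 0.0598 and 0.0779. Acaca, the cytosolic carboxylase, overlapped between groups, with 527 to 1506 CPM in WT and 1068 to 2866 in ANKO (0.97, adjusted p = 0.0435). It was not called when any of WT2, WT3, WT4, ANKO1, ANKO2 or ANKO3 was left out (adjusted p from 0.0600 to 0.112). The Acaca call was also lost with limma-voom (adjusted p = 0.0749) and, in edgeR, without the low-count filter (adjusted p = 0.0911). Without WT3 and WT4 neither Acaca (edgeR adjusted p = 0.217) nor Acacb (0.0617) was called. Of these 3 genes the Mlycd result alone held with each library left out in turn. With the muscle covariate none of the 3 was called: Mlycd was at -0.71 (adjusted p = 0.131), Acacb at -0.95 (adjusted p = 0.202) and Acaca at 0.44 (adjusted p = 0.699).

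The peroxisomal list, whose products CROT takes up, fell for the most part while Crot did not pass its test. Of 18 genes 13 were lower (27.6% of all genes tested), 1 was higher (30.6%) and 4 did not pass. The median log2 fold change was -0.84. Phyh, which starts the oxidation of branched phytanic acid, had 706 to 757 CPM in WT and 139 to 235 in ANKO (-1.85, adjusted p = 1.19e-05). Ehhadh, the bifunctional peroxisomal enzyme, had 144 to 183 and 37.1 to 62.2 CPM (-1.74, adjusted p = 1.23e-05). Decr2 (-1.54, adjusted p = 4.04e-05) and the racemase Amacr (-1.31, adjusted p = 3.11e-05) fell as well. Acox2, an acyl-CoA oxidase for branched chains, rose from 0.933 to 1.39 CPM to 2.48 to 6.80 CPM (2.18, adjusted p = 0.000142).

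Nuclear receptors and coregulators known to act on CPT1 genes were mostly lower. Of 11 genes 8 fell (27.6% of all genes tested), 1 rose (30.6%) and 2 did not pass (median -0.97). Ppara, the receptor that activates fatty acid oxidation genes including both CPT1 isoforms, had 549 to 626 CPM in WT and 87.6 to 174 in ANKO (-2.22, edgeR adjusted p = 2.37e-05). Ppargc1b, a coactivator, had 159 to 188 and 41.96 to 67.2 CPM (-1.68, adjusted p = 8.94e-06). Pparg (-1.07, adjusted p = 0.000164) and Rxrb (-0.73, adjusted p = 0.000216) fell too, and both lost their call with the muscle covariate (-0.80, adjusted p = 0.0521 and -0.56, adjusted p = 0.0612). Rxra was called higher (0.31, adjusted p = 0.0361) with overlapping groups, and it was called in 1 of the 8 fits that left out 1 library, the fit without WT3.

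**Figure D4:**
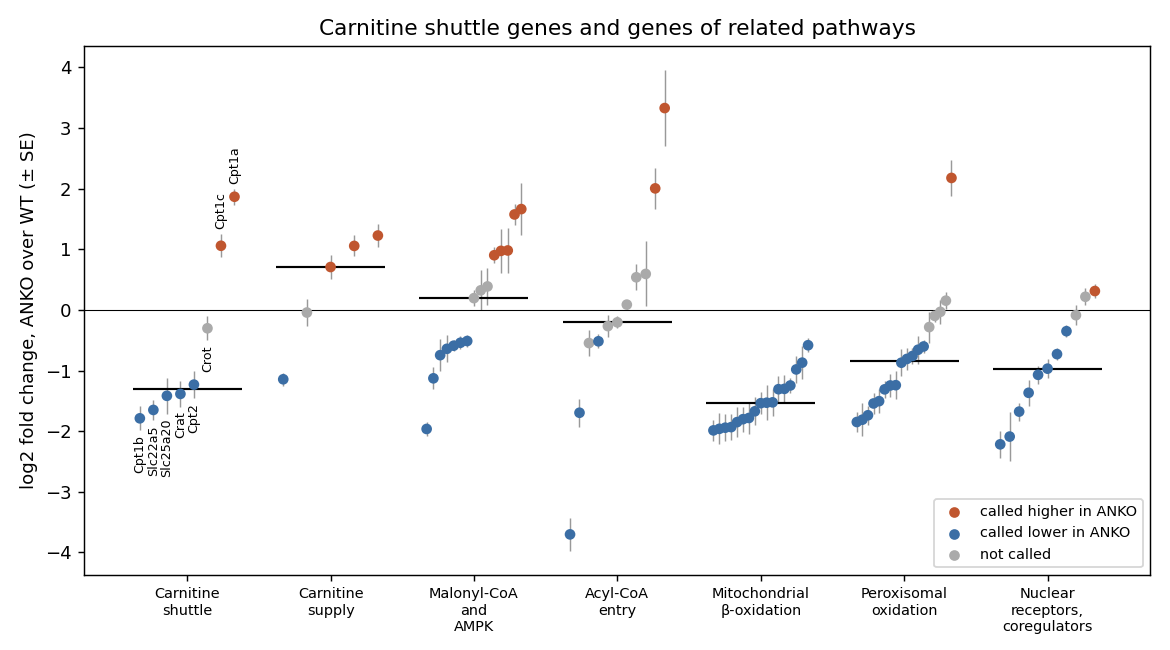
Log2 fold change of ANKO over WT (y axis, points ± SE) for the 8 shuttle genes and the tested genes of 6 related lists (x axis, labelled groups). Each point is 1 gene, coloured by whether it was called higher, called lower or not called, and horizontal bars are medians. All 17 beta-oxidation genes lie between -1.99 and -0.58, while the shuttle runs from -1.79 for Cpt1b to 1.87 for Cpt1a.

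The targeted gene and the makeup of the tissue were checked over all libraries. Nampt averaged 508 ± 42.2 CPM over the WT mice, and the ANKO mean of 72.3 ± 4.67 CPM was 14.2% of that level (log2 fold change -2.81, edgeR adjusted p = 1.51e-07). Library totals were 21771276 to 49697156 counts in WT and 5738067 to 26426476 in ANKO. Of 9 brown adipocyte markers 6 were lower, Ucp1 and Cidea among them, and 3 did not pass. Those 3 were Elovl3, Zic1 and Lhx8, with log2 fold changes of 0.39, 0.08 and 0.37. The sum of all 9 was 6707 to 13886 CPM in WT and 931 to 3446 in ANKO. Of 8 general adipocyte markers such as Adipoq 7 were lower and 1 was higher, with sums of 14225 to 17272 and 6158 to 8842 CPM. The tissue of all 8 libraries thus expressed the defining genes of brown fat.

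Markers of other cell types differed between groups as well, and their part in the shuttle results was not tested except for muscle. The counts below stand beside 30.6% of all genes tested called higher and 27.6% called lower. Skeletal muscle markers such as Acta1 and Ckm were higher for 13 of 17 and lower for 0, with sums of 76.3 to 3148 CPM in WT and 11719 to 16722 in ANKO. Macrophage markers were higher for 12 of 12 (159 to 209 against 1277 to 1753 CPM). Fibroblast markers were higher for 7 of 8 (906 to 1308 against 4103 to 7681 CPM), and lymphocyte markers for 6 of 7 (3.36 to 4.65 against 19.5 to 29.9 CPM). Endothelial markers were lower for 4 of 9 (1137 to 1332 against 811 to 1040 CPM). Mural markers were higher for 4 of 6 and lower for 1 (950 to 1056 against 778 to 821 CPM in sum), and Schwann cell markers were higher for 3 of 6 and lower for 1 (149 to 168 against 112 to 150 CPM). Among the tested markers only Tnnc2, a muscle gene, was at 0 in a library, WT3.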

How the data were processed

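Per the labels' protocols, brown fat was flash frozen, RNA was taken with Qiazol and RNeasy columns, and rRNA was depleted with Ribo-Zero Gold. The submitters' processing notes name STAR 2.0.4b, featureCounts 1.45 of Subread and GRCm38. Which annotation release, strand setting and rule for multiply mapped reads were used is not given in the sources used here. The authors deposited 1 table per library with 41388 genes. Per the file headers it holds a raw read count, a CPM (count scaled to the total of that table) and an RPKM (CPM per kb of the deposited length). Only counts entered the tests. Symbols came from GENCODE M21 by Ensembl ID (40254 matched), and 355 rRNA rows, 2.83% to 3.53% of WT and 0.801% to 1.13% of ANKO counts, were left out.

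Printed CPM values are counts over TMM-scaled library sizes. Genes kept by filterByExpr were tested with the robust quasi-likelihood test of edgeR 4.0.16 (R 4.3.3), 4 WT against 4 ANKO mice taken from the titles and genotype labels, without covariate. An adjusted p under 0.05 was called. Standard errors were derived from the F statistic, and the biological coefficient of variation was 20.6%. Ratios within a library used counts plus 0.5 per kb and an exact two-sided permutation test. A level of 3 counts was 0.0604 to 0.523 CPM, which covers counting error only. The script was tested on simulated data.

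The members and lists were chosen with earlier results of these data known. Named genes are the 8 members, all of the carnitine supply list, the 4 called genes with the smallest p of each other list, up to 3 called against the direction of most, the most similar genes, Nampt and overlapping neighbours. Alternatives were other scalings (RLE, upper quartile, none), filters, thinning, DESeq2 1.42.0, limma-voom (limma 3.58.1), a replicate block, each library left out, WT3 and WT4 left out, protein-coding genes alone, the mean log2 CPM of 17 muscle markers as covariate (r with genotype 0.857) and, chosen after seeing the data, unshared exon bases. Replicate numbers of the titles were not taken as pairs in the main tests.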

Additional observations from a re-analysis of the deposited data

Results flagged for a closer look

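In groups of 4 libraries 1 library can stand far from the other 3, and chance alone gives about 1 such case in 20 groups. Of 108 groups checked, over the genes named here, 8 held such a library, and no cause was tested for any of them. Cpt1b was 9.03 CPM in ANKO4, where the other ANKO libraries had 16.6 to 17.9 CPM. In the same library Prkag2 was 44.0 CPM (51.5 to 52.8 in the others), Pparg was 155 CPM (214 to 226) and Exoc7 was 40.2 CPM (48.0 to 48.9). In WT3 Nampt was 571 CPM (484 to 495 in the other WT libraries) and Decr2 was 98.2 CPM (73.6 to 75.6). Ppargc1b was 188 CPM in WT1 (159 to 163 in the others). Slc6a14 was 0.0388 CPM in WT2, which is 1 count, and 0 in the other WT libraries.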

How the results depend on the processing

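Of the 20 alternative fits, including the 8 that left out 1 library, the count of called shuttle genes was 7 in all but 3. It was 8 with the replicate block and 8 without WT3 and WT4, where Crot was added, and 4 with the muscle covariate (1 higher, 3 lower), which also left 3636 genes called over all genes (2113 higher, 1523 lower) in place of 9726. With 1 library left out 8942 to 10467 genes were called. The Cpt1a to Cpt1b difference ran from 3.36 to 3.88 with 1 library left out, where an exact permutation test cannot go below p = 0.0571, and was 3.52 without WT3 and WT4 (p = 0.133, again the smallest possible). Crot over Crat ran from 0.97 to 1.30 and was 0.70 without WT3 and WT4, and summed CPT1 over Cpt2 ran from 0.94 to 1.37 and was 1.21 without them. With the replicate number as a block (paired exact test, smallest possible p = 0.125) these differences were 3.69, 1.14 and 1.21. The block left 9239 genes called and added Crot (-0.30, adjusted p = 0.0327). Deviations of same-numbered libraries correlated at 0.114, -0.013, 0.075 and -0.053, within the range of differently numbered ones (-0.128 to 0.124). No sign of pairing by number was seen, but such correlations cannot exclude it. The CPT1 sum changed sign without WT3 and WT4 (0.079), undivided by length (0.13) and without scaling (0.12), and was -1.20 on unshared bases, where the sum over Cpt2 was 0.081. It ran from -0.13 to -0.01 with 1 library left out. Slc25a29 changed sign without scaling (0.12), with upper quartile scaling (0.040), thinned counts (0.028), and without WT1 (0.027), ANKO1 (0.031) or ANKO4 (0.055). Dolpp1 did so with the muscle covariate (-0.27) and without WT3 and WT4 (-0.089), and Exoc7 without scaling (0.0023). Of 47 tested genes named here 17 lost their call with the muscle covariate, which ran closely with genotype (r = 0.857). The cause of these changes was not tested. Depth limits genes below 0.523 CPM in ANKO4, among them Bbox1, Slc6a14 and Slc22a16.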
